A study of Mus musculus with 20 samples.

Results

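Gad1, Gad2, Slc32a1, Lhx6, Sst, Npy, Vip and Pvalb are 8 transcripts used as markers of inhibitory interneurons. These transcripts were followed across the white matter of Zdhhc9 knockout and wild-type mice. They were found by matching gene identifiers, without their version, to these symbols, and all 8 of 8 were present among the 46517 genes of the deposited table. Messenger RNA was measured by RNA sequencing in 20 libraries. For the corpus callosum, through which axons cross between the hemispheres of the brain, there were 6 knockout (KO_CCg) and 5 wild-type libraries (WT_CCg), dissected from frozen coronal sections between 0.98 and 0.62 mm from bregma. For the optic nerve, which carries the axons of retinal ganglion cells, there were 5 knockout (KO_ON) and 4 wild-type libraries (WT_ON). The labels call the mutant a Zdhhc9 knockout, the series text calls it a knockdown, and the labels used here do not give the strain or age of the mice or the design of the allele. The Zdhhc9 protein is a palmitoyl transferase, an enzyme that links the fatty acid palmitate to other proteins.

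Inhibitory interneurons make the transmitter GABA from glutamate, load it into synaptic vesicles and release it on neighbouring neurons. Cortical interneurons are sorted into classes by what else they make, chiefly somatostatin, parvalbumin, vasoactive intestinal peptide or neuropeptide Y. White matter holds few neuron cell bodies, but scattered interneurons, many of them making somatostatin or neuropeptide Y, are known to lie in the white matter under the cortex. Projection neurons of the striatum and many neurons of the septum and hypothalamus, all of them neighbours of these tracts, also make GABA, so Gad1, Gad2 and Slc32a1 do not mark interneurons alone. In bulk tissue, fewer cells of a type and less RNA per cell cannot be told apart.

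Total estimated counts ranged from 17333746 to 25028817 in KO_CCg, from 15401130 to 25375187 in WT_CCg, from 18837907 to 25866142 in KO_ON and from 22299837 to 26095622 in WT_ON libraries. Levels below are CPM, the estimated count scaled to the total of the library. Zdhhc9 averaged 49.6 ± 5.1 CPM in KO_CCg and 184.9 ± 17.4 CPM in WT_CCg libraries (SD, n = 6 and 5), and 41.3 ± 7.3 CPM in KO_ON and 132.5 ± 12.3 CPM in WT_ON libraries (SD, n = 5 and 4), with no overlap in either tissue. The labelled tissue carried its markers: 10 myelin transcripts summed to between 36030 and 68610 CPM in KO_CCg, between 56440 and 86120 CPM in WT_CCg, between 55940 and 84850 CPM in KO_ON and between 77450 and 89050 CPM in WT_ON libraries. Libraries are named by genotype, tissue and animal or sample number as in the labels. Nothing in the labels says how separate the samples of a group are, so p-values measure the spread between these libraries.

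The promoters of Sst and Vip are shown because their genes code for interneuron peptides whose transcription is textbook material for the cyclic AMP response element, the 8-base palindrome TGACGTCA, and because both transcripts followed the same split of callosum libraries described further on. RefSeq lists 11 promoters for the 8 genes in build GRCm38.p6, and in each a window from 250 bases before to 50 bases after the start site was searched on both strands. The whole element stood in 1 of 11, that of Sst, 48 bases before the start, and in 1.79% of all 32851 promoters. The shorter site TGACG, which is part of the whole element, stood in 3 of 11, those of Sst, Vip and Gad2, and in 20.81% of all promoters. The homeodomain core TAATTA, the kind of letters that LIM homeodomain proteins such as Lhx6 bind, stood in 0 of 11 and in 5.29% of all. The 250 bases before the start site follow, with the match in capitals. Sst lies on the minus strand at chr16:23890845-23891094 and Vip on the plus strand at chr10:5638968-5639217.
Sst: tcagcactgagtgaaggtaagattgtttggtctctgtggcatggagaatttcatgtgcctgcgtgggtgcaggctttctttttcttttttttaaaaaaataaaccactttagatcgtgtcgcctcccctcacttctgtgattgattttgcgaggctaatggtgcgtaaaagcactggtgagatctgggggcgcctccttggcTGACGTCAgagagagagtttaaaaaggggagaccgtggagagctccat
Vip: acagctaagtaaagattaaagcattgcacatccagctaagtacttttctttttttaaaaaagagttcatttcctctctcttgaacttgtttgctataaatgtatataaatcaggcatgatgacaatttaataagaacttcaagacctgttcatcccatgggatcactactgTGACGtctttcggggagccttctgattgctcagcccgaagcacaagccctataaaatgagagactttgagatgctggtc
A match is a run of letters and not evidence of binding.

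**Figure D1:**
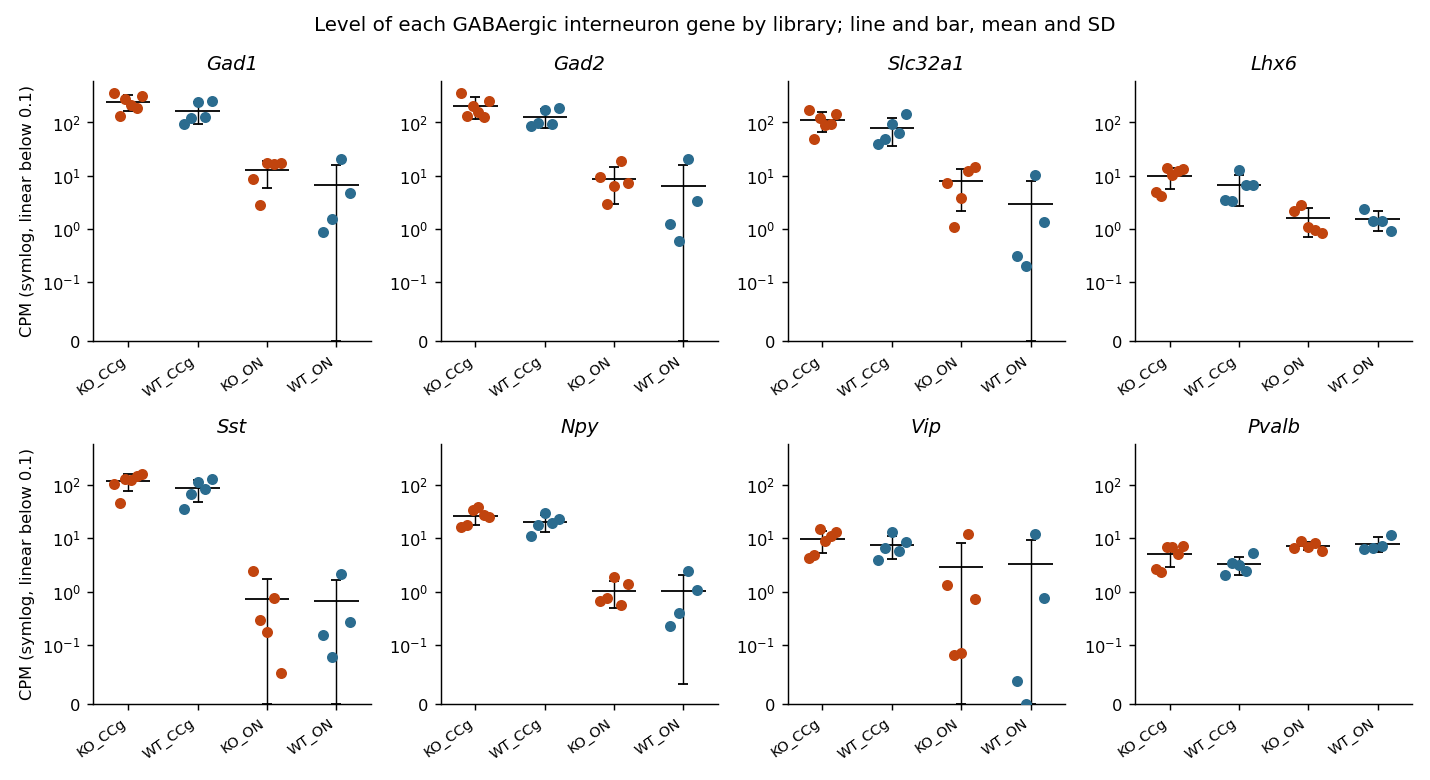
Level of each gene (CPM on a symlog axis, which is linear below 0.1) in KO_CCg, WT_CCg, KO_ON and WT_ON libraries; each point is 1 library, the line is the group mean and the bar the SD, cut at 0 where it would go below. For Gad1, Gad2, Slc32a1, Lhx6, Sst and Npy every callosum library lay above every optic nerve library, Vip was as high in 1 library of KO_ON and 1 of WT_ON as in the callosum, and Pvalb lay between 2.01 and 11.6 CPM over all 4 groups. How many of all genes separate the tracts in this way was not counted.

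Per kilobase of merged exons, Sst was the most abundant of the 8 in the callosum, with 165.8 ± 57.4 CPM per kb in KO_CCg and 121.6 ± 53.8 CPM per kb in WT_CCg libraries (SD, n = 6 and 5). Npy, Slc32a1, Gad2 and Gad1 came next, between 47.2 and 32.2 CPM per kb in KO_CCg and between 35.7 and 21.8 CPM per kb in WT_CCg libraries, and neighbours in this order did not differ beyond their SD. Pvalb, Vip and Lhx6 were lowest, at 4.94, 2.81 and 2.06 CPM per kb in KO_CCg and 3.16, 2.25 and 1.36 CPM per kb in WT_CCg libraries. The order in the optic nerve was another. Pvalb led there with 6.999 ± 1.27 CPM per kb in KO_ON and 7.66 ± 2.35 CPM per kb in WT_ON libraries (SD, n = 5 and 4), and the other 7 were below 3 CPM per kb in both groups, again with neighbours in the order not differing beyond their SD.

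In the comparison of the tracts, 6 of the 8 genes were higher in the callosum of both genotypes. Genes were called at a Benjamini-Hochberg adjusted p under 0.05 over all 16440 genes tested, by edgeR's quasi-likelihood test on the 20 libraries, and with a log2 fold change beyond 1 in size. By this rule 30.1% of all genes were called in knockout (15.2% higher and 14.9% lower in callosum) and 26.2% in wild type (13.2% higher and 13% lower). The median log2 fold change of the 8 genes was 3.96 in KO_CCg over KO_ON and 4.26 in WT_CCg over WT_ON, against 0.00085 and 0.026 over all genes. The KO and WT folds come from separate libraries of the same fit. How many of all genes had no overlap between the tracts was not counted.

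Gad1, the glutamate decarboxylase that makes most GABA in neuron cell bodies (ENSMUSG00000070880, mm10 chromosome 2, 70553072 to 70602014), was at 135 to 356 CPM in the 6 KO_CCg libraries, against 8.66 CPM in KO_ON_48038A7, 2.83 in KO_ON_48118A4, 17.1 in KO_ON_693452, 16.8 in KO_ON_717651 and 17.5 in KO_ON_719856. It was at 92.9 to 250.7 CPM in the 5 WT_CCg libraries, against 0.881 CPM in WT_ON_700858, 1.56 in WT_ON_701297, 20.2 in WT_ON_717652 and 4.66 in WT_ON_719857. The tracts did not overlap, yet the optic nerve libraries differed widely among themselves. Gad1 was higher in callosum by a log2 fold change of 4.195 in KO (SE 0.63, edgeR adjusted p = 8.4e-06) and 4.58 in WT (SE 0.72, adjusted p = 2.3e-05).

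Gad2, the decarboxylase held at nerve terminals (ENSMUSG00000026787, chromosome 2, 22622205 to 22693874), had log2 fold changes of 4.45 in KO (SE 0.67) and 4.27 in WT (SE 0.75), both called. It was at 9.26, 2.91, 6.38, 18.6 and 7.16 CPM in the 5 KO_ON and at 1.26, 0.605, 20.9 and 3.30 CPM in the 4 WT_ON libraries, in the same order. Slc32a1, the vesicular transporter that loads GABA (ENSMUSG00000037771, chromosome 2, 158610767 to 158615748), had 3.72 in KO (SE 0.71) and 4.67 in WT (SE 0.85), both called. Like Gad1, both were high in some nerves only. In the same order of libraries as for Gad1, Slc32a1 was at 7.42, 1.08, 3.87, 12.4 and 14.6 CPM in KO_ON and at 0.307, 0.200, 10.2 and 1.35 CPM in WT_ON libraries. Without WT_ON_717652 the folds between the WT tracts were 6.08 for Gad1, 6.16 for Gad2 and 6.94 for Slc32a1, and all 3 stayed called with any 1 library left out. The ratio of Gad1 to Gad2 was between 0.986 and 1.45 in KO_CCg and between 1.06 and 1.42 in WT_CCg libraries. In the nerves the ratio varied more, at 2.67 in KO_ON_693452, 2.44 in KO_ON_719856 and 2.58 in WT_ON_701297 against 0.702 to 1.41 in the other 6 nerves.

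Sst, the peptide somatostatin (ENSMUSG00000004366, chromosome 16, 23889573 to 23890958), showed the widest gap between the tracts among the 8 genes. Its lowest callosum library, WT_CCg_28, had 35.3 CPM, while it was at 2.40, 0.292, 0.172, 0.765 and 0.0531 CPM in KO_ON and at 0.153, 0.0801, 2.17 and 0.269 CPM in WT_ON libraries. The log2 fold change was 7.16 in KO (SE 0.69, edgeR adjusted p = 2.2e-08) and 7.02 in WT (SE 0.77, adjusted p = 2.6e-07), the last being 8.94 without WT_ON_717652. Npy, neuropeptide Y (ENSMUSG00000029819, chromosome 6, 49822710 to 49829507), was higher in callosum by 4.595 in KO (SE 0.45) and 4.25 in WT (SE 0.50). Its optic nerve levels were 0.561 to 1.85 CPM in KO_ON and 0.230 to 2.43 CPM in WT_ON libraries. Lhx6, the transcription factor of interneurons born in the medial ganglionic eminence (ENSMUSG00000026890, chromosome 2, 36081953 to 36105408), was higher by 2.53 in KO (SE 0.42) and 2.02 in WT (SE 0.46). Its lowest callosum library, WT_CCg_30 at 3.29 CPM, came closest of these 6 genes to the nerves, at 0.849 to 2.81 CPM in KO_ON and 0.921 to 2.37 CPM in WT_ON libraries.

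Pvalb, the calcium-binding protein parvalbumin (ENSMUSG00000005716, chromosome 15, 78191114 to 78206400), ran the other way in wild type. It was at 2.01, 3.43, 3.18, 2.48 and 5.35 CPM in the 5 WT_CCg libraries, against 6.44, 6.604, 7.26 and 11.6 CPM in the 4 WT_ON libraries. The groups did not overlap, and Pvalb was lower in WT_CCg by a log2 fold change of -1.33 (SE 0.32, edgeR adjusted p = 0.0015). In knockout it was at 2.31 to 7.07 CPM in KO_CCg, with a median of 5.92, against 5.84 to 8.99 CPM in KO_ON libraries. These groups overlapped, and the fold of -0.59 (SE 0.28, adjusted p = 0.0772) was not called. Whether the tract difference itself differed with genotype is the interaction given below. Which cells of the nerve made Pvalb was not tested.

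Vip, vasoactive intestinal peptide (ENSMUSG00000019772, chromosome 10, 5639218 to 5647617), was not called in either genotype, at 1.64 in KO (SE 1.04, edgeR adjusted p = 0.178) and 1.196 in WT (SE 1.14, adjusted p = 0.405). It was at 4.32 to 14.9 CPM in KO_CCg and 3.96 to 13.1 CPM in WT_CCg libraries. In the nerve it was at 12.3 CPM in KO_ON_717651 and at 1.35, 0.0833, 0.0859 and 0.743 CPM in the other KO_ON libraries. It was at 12.3 CPM in WT_ON_717652 and at 0.0383, 0 and 0.762 CPM in the other WT_ON libraries. A single nerve of each genotype thus reached the callosum range, and the other 7 nerves lay below it. The library at 0 counts allows a level of up to 0.120 CPM, 3 counts of its total, by counting error only. Without KO_ON_717651 the KO fold was 3.95 (adjusted p = 0.0049), and without WT_ON_717652 the WT fold was 4.81 (adjusted p = 0.0064). These are the nerves highest in Vip, so leaving them out raises the fold by construction. Limma-voom with quality weights called Vip with all libraries, at 4.46 in KO (adjusted p = 0.00043) and 5.52 in WT (adjusted p = 0.0024), and DESeq2 did not. Of the 8 genes, DESeq2 called 6 in KO and 7 in WT, and limma-voom 7 in KO and 8 in WT.

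**Figure D2:**
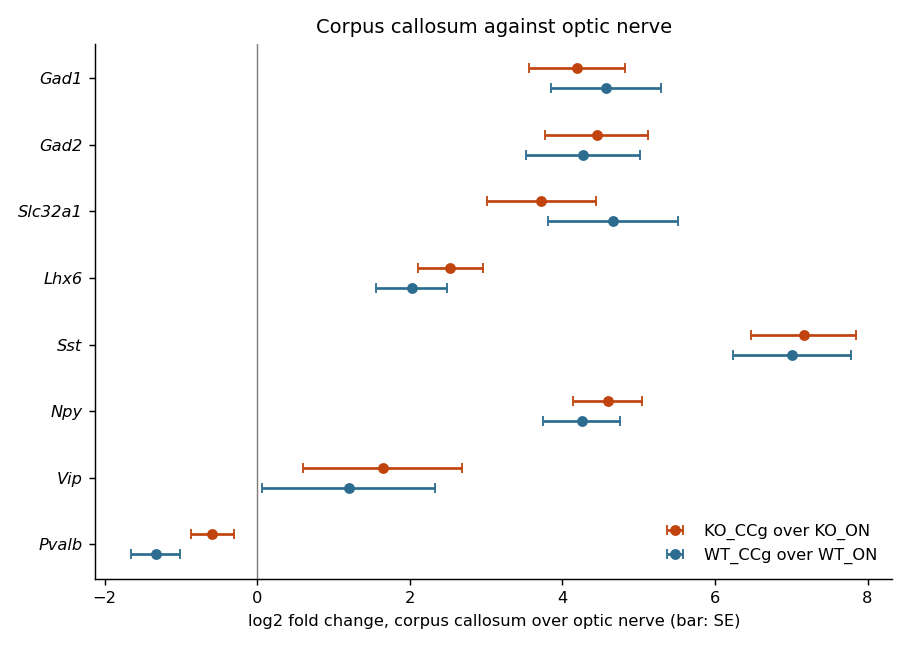
Log2 fold change of corpus callosum over optic nerve for each gene in KO (upper point of each pair) and WT (lower point), with SE bars. Sst stands at 7.16 in KO and 7.02 in WT, Vip has SE of 1.04 and 1.14, and Pvalb is the one gene left of 0, at -0.59 in KO and -1.33 in WT.

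Transcripts of neighbouring brain regions were read in the same nerves, and their level did not run with that of the 8 genes throughout. The single markers Lhx1, Nms and Avp were picked after their values were seen. KO_ON_717651 and WT_ON_717652, at 12.3 CPM of Vip each, were the 2 nerves with the most Lhx1, a transcription factor of the suprachiasmatic nucleus, at 1.73 and 1.99 CPM against 0 to 0.531 CPM in the others. They also had the most Nms, a peptide of the same nucleus, at 0.357 and 0.885 CPM. Avp, the hypothalamic peptide vasopressin, was at 87.7, 31.4, 4.33, 52.3 and 2.18 CPM in KO_ON and at 1.61, 4.28, 105.6 and 36.8 CPM in WT_ON libraries, in the same order. The 14 hypothalamic markers, a list written after these data were seen, summed to 2.02 to 5.09 CPM in KO_CCg and 1.38 to 3.68 CPM in WT_CCg libraries, against 183.8, 244, 35.9, 159 and 20.96 CPM in KO_ON and 16.1, 19.3, 192 and 91.6 CPM in WT_ON libraries, in the same order as Avp. The highest sum was that of KO_ON_48118A4, the KO_ON library lowest in Gad1, and KO_ON_693452, with 17.1 CPM of Gad1, had a low one. Vip stood at 2 counts in each of these libraries. Avp, Nms and Sim1 were at 0 in every WT_CCg library. No marker of the list was at 0 throughout the KO_ON or the WT_ON libraries.

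KO_ON_719856, with 17.5 CPM of Gad1 and 14.6 CPM of Slc32a1 but 0.743 CPM of Vip, stood apart in Tfap2b, a factor that amacrine cells of the retina make, at 12.4 CPM against 0.681 to 2.85 CPM in the other nerves. The sums of the 12 retinal markers overlapped between the tracts, at 147.7 to 243 CPM in KO_CCg and 138.8 to 215.4 CPM in WT_CCg libraries, against 118 to 226 CPM in KO_ON and 123 to 147 CPM in WT_ON libraries, with none at 0 throughout an optic nerve group. The highest of these nerve sums, 226 CPM, was that of KO_ON_719856, and the next was 159.5 CPM in KO_ON_693452. Prox1 had the highest average log2 CPM of the list in both tracts, at 6.71 in optic nerve and 6.86 in callosum. The part of these other cells in the optic nerve levels was not tested. Leaving out the libraries highest in Vip cannot test it, because they were picked by the level of Vip itself.

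**Figure D3:**
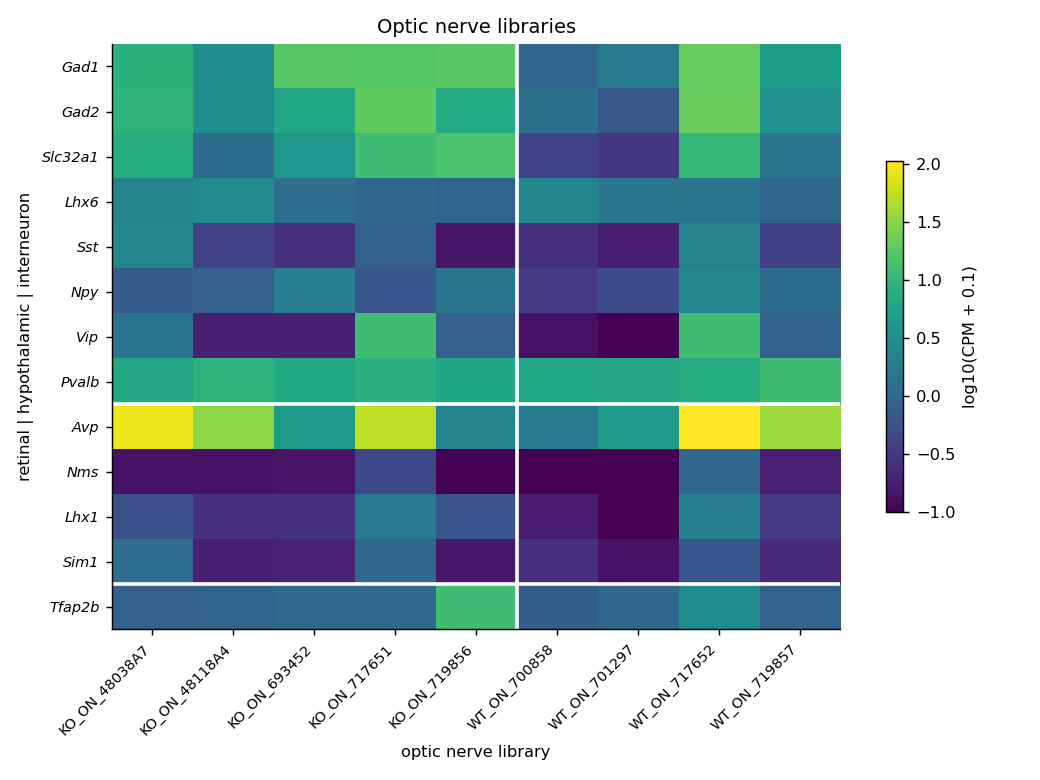
Levels in the 9 optic nerve libraries as log10(CPM + 0.1), KO_ON libraries left of the white vertical line and WT_ON libraries right of it; the blocks from top to bottom are the 8 interneuron genes, 4 of the hypothalamic markers and 1 of the retinal markers, those named in the text. Vip and Lhx1 are bright in KO_ON_717651 and WT_ON_717652. Avp is bright there and also in other nerves, such as KO_ON_48038A7 with 1.35 CPM of Vip. KO_ON_719856 is bright in Tfap2b, while Pvalb varies little.

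In the callosum, the question was whether loss of Zdhhc9 went with a change in these transcripts. None of the 8 genes was called by edgeR, where 0.0387% of all 15519 genes tested were (6 genes, 2 higher and 4 lower). At an unadjusted p under 0.05 stood 1 of the 8, Gad2, against 11.7% of all genes. DESeq2 called 0 of 8 and limma-voom, with quality weights, called 2 of 8, Gad1 at 0.77 (adjusted p = 0.0365) and Gad2 at 0.77 (adjusted p = 0.0389), in a fit that called 2786 genes. All 8 fold changes were above 0, with a median of 0.49 on the log2 scale, against 47.5% of genes above 0 and a median of -0.013 over all genes.

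Gad1 was at 135 to 356 CPM with a median of 241 in KO_CCg libraries, and at 92.9 CPM in WT_CCg_28, 122.5 in WT_CCg_30, 244 in WT_CCg_685232, 128 in WT_CCg_717652 and 250.7 in WT_CCg_7198587. The groups overlapped, with 3 of 6 knockout libraries above every wild-type library, and the log2 fold change was 0.51 (SE 0.29, edgeR adjusted p = 0.491). Gad2 was at 129 to 361 CPM with a median of 183 in KO_CCg, against 87.5, 97.9, 172, 94.1 and 190 CPM in WT_CCg libraries. It again had 3 of 6 knockout libraries above every wild-type one, at a fold of 0.65 (SE 0.29, adjusted p = 0.420). For Slc32a1 the levels were 48.8 to 173 CPM with a median of 108 in KO_CCg, against 40.1, 49.3, 92.2, 62.9 and 145 CPM in WT_CCg libraries, and the fold was 0.48 (SE 0.34, adjusted p = 0.578). The highest of the 11 in all 3 genes was KO_CCg_27.

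The peptides and the calcium-binding protein overlapped as widely. Sst was at 45.5 to 164 CPM with a median of 128 in KO_CCg, against 35.3, 67.5, 117, 86.4 and 133 CPM in WT_CCg libraries (fold 0.41, SE 0.33, edgeR adjusted p = 0.614). For Npy the range was 16.3 to 39.2 CPM with a median of 26.6 in KO_CCg, against 10.9, 17.7, 29.4, 19.4 and 23.5 CPM in WT_CCg libraries (fold 0.37, SE 0.26, adjusted p = 0.565). In these 2 peptides, 2 of 6 knockout libraries stood above every wild-type library. Vip had 4.32 to 14.9 CPM with a median of 10.2 in KO_CCg, against 3.96, 6.61, 13.1, 5.83 and 8.68 CPM in WT_CCg libraries (fold 0.28, SE 0.35, adjusted p = 0.747). Pvalb, with the library values given above, had a fold of 0.60 (SE 0.33, adjusted p = 0.488). Lhx6 was at 4.23 to 14.2 CPM with a median of 11.4 in KO_CCg, against 3.52, 3.29, 12.8, 6.604 and 6.57 CPM in WT_CCg libraries (fold 0.55, SE 0.39, adjusted p = 0.565). For every one of the 8 genes the groups overlapped. The lowest callosum library was the same one, WT_CCg_28, for every gene but Lhx6, where it was WT_CCg_30. WT_CCg_28 also had the lowest total of the callosum libraries, 15401130 estimated counts, and their lowest sum of general neuron markers, 1218 CPM.

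Markers of other neurons also had folds above 0 in the same libraries. Of 14 general neuron markers 14 were above 0 and 0 were called, with a median of 0.60 and summed levels of 1436 to 5320 CPM in KO_CCg and 1218 to 3834 CPM in WT_CCg libraries. Of 15 markers of striatal projection neurons 15 were above 0 (median 0.77, sums of 1248 to 2618 CPM in KO_CCg and 744 to 1507 CPM in WT_CCg), and of 11 cortical excitatory markers 10 (median 0.63, sums of 261 to 1567 CPM in KO_CCg and 258 to 1013 CPM in WT_CCg). Septal markers were above 0 in 6 of the 7 tested (median 0.39, sums of 93.2 to 404 CPM in KO_CCg and 105 to 257 CPM in WT_CCg), and the 10 myelin genes were all below 0 (median -0.50). None of these neuronal markers was at 0 throughout a callosum group. With the level of the general neuron markers as a covariate, the folds were 0.14 for Gad1, 0.37 for Gad2, 0.018 for Slc32a1, 0.015 for Lhx6, -0.16 for Sst, 0.037 for Npy, -0.20 for Vip and 0.077 for Pvalb. With the striatal markers as the covariate, Gad1 was at 0.11, Gad2 at 0.18 and Slc32a1 at 0.0082, while Pvalb was at 0.76.

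**Figure D4:**
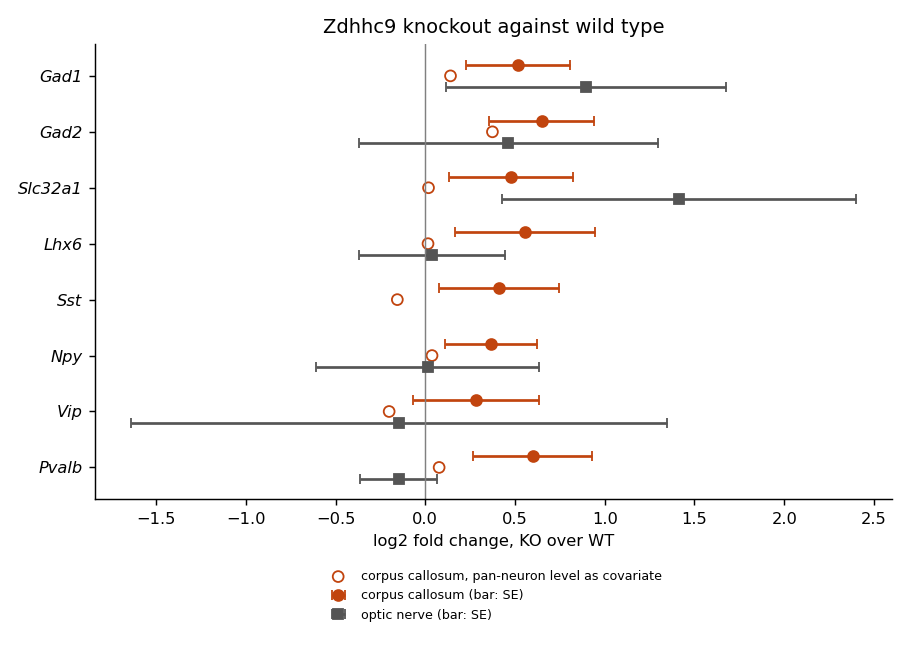
Log2 fold change of KO over WT for each gene in corpus callosum (filled circles, SE bars), in corpus callosum with the general neuron markers as a covariate (open circles, no bar) and in optic nerve (squares, SE bars; Sst was below the count filter there). The callosum folds lie between 0.28 and 0.65, the covariate folds between -0.20 and 0.37, and Vip in optic nerve has the widest bar, an SE of 1.49.

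In the optic nerve, none of the 7 genes tested was called between genotypes by edgeR, DESeq2 or limma-voom, and 0 of 7 were under an unadjusted p of 0.05, against 5.48% of all 15556 genes. By the adjusted rule 0.0129% of all genes were called (2 genes, both lower). Slc32a1 was at 1.42 (SE 0.99, edgeR adjusted p = 0.846), Gad1 at 0.90 (SE 0.78, adjusted p = 0.860) and Gad2 at 0.46 (SE 0.83, adjusted p = 0.935). Npy was at 0.013 (SE 0.62), Lhx6 at 0.037 (SE 0.40), Vip at -0.14 (SE 1.49) and Pvalb at -0.15 (SE 0.21). Pvalb, with 5.84 to 8.99 CPM in KO_ON and 6.44 to 11.6 CPM in WT_ON libraries, had the smallest SE of the 7. Sst was below the count filter and averaged 0.736 CPM in KO_ON and 0.668 CPM in WT_ON libraries (exact two-sided permutation p = 0.81 over 126 groupings). Without WT_ON_717652 the folds were 3.66 for Slc32a1, 2.38 for Gad1 and 2.33 for Gad2, none of them called, and with any 1 library left out Gad1 was between 0.52 and 2.38. Without the same library the fold of Vip was 3.44, and without both libraries highest in Vip, an alternative added after the data were seen, it was 1.08.

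The knockout effect was not shown to differ between the tracts for any of the 8 genes. By edgeR 0 of 8 and 0% of 16440 genes were called in the interaction of tissue and genotype, 0 of 8 were under an unadjusted p of 0.05, against 6.83% of all genes, and DESeq2 and limma-voom called 0 of 8. The difference for Pvalb, callosum effect minus optic nerve effect, was 0.74 (SE 0.43, edgeR adjusted p = 0.745). For Vip it was 0.45 with an SE of 1.50, and without WT_ON_717652 it was -3.17.

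Within the callosum the libraries split along another line. In 4 of them the labels give a 2-digit number (KO_CCg_27, KO_CCg_29, WT_CCg_28 and WT_CCg_30) and in 7 a longer one. The labels do not say what the format stands for. Total estimated counts were 15401130 to 19531571 in the 2-digit and 21917519 to 25375187 in the longer numbers. The formats thus differed in depth without overlap, and the part of depth in what follows was not tested. Libraries with longer numbers were compared with those with 2-digit numbers in a fit with genotype as a covariate, a comparison added after the data were seen. By edgeR, 26.6% of 16228 genes were called at an adjusted p under 0.05, 12.8% higher and 13.8% lower in the longer numbers, and 5 of the 8 genes were called, all higher. These were Lhx6, Vip, Sst, Pvalb and Npy, the class markers, while the 3 genes of GABA synthesis and loading were not called.

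Lhx6 had the largest of these differences, at 6.57 to 14.2 CPM in the longer numbers and 3.29 to 4.96 CPM in the 2-digit numbers, with no overlap (log2 fold change 1.36, SE 0.19, edgeR adjusted p = 0.0024). Npy did not overlap either, at 19.4 to 39.2 CPM in the longer and 10.9 to 17.9 CPM in the 2-digit numbers (0.78, SE 0.16, adjusted p = 0.0074). The share of all genes without overlap between the number formats was not counted. Vip was higher by 1.06 (SE 0.24, adjusted p = 0.0105) and Sst by 0.98 (SE 0.23, adjusted p = 0.0108), with overlapping ranges. Pvalb was higher by 0.87 (SE 0.27, adjusted p = 0.0353). That call was lost, with adjusted p up to 0.146, without any 1 of KO_CCg_27, KO_CCg_29, KO_CCg_693451, KO_CCg_693452, KO_CCg_719856, WT_CCg_28 or WT_CCg_7198587. Gad1 was at 0.39 (adjusted p = 0.329), Slc32a1 at 0.49 (adjusted p = 0.312) and Gad2 at 0.065 (adjusted p = 0.897). Without KO_CCg_27, the library highest in all 3, Gad1 was called at 0.86 (adjusted p = 0.0146) and Slc32a1 at 1.12 (adjusted p = 0.0067).

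The cortical excitatory markers summed to 565 to 1567 CPM in the longer and 258 to 542 CPM in the 2-digit numbers, and 7 of 11 were higher and 1 lower. Of all genes 12.8% were higher and 13.8% lower, the shares to set beside each list below. Of the general neuron markers 11 of 14 were higher, and of the striatal and septal markers 0 of 15 and 0 of 9 were called. Markers of subventricular zone neuroblasts went mostly the other way, with 1 of 12 higher and 6 lower (median -0.57), as did 3 of 8 astrocyte markers (median -0.33) and 3 of 10 myelin markers (median -0.35), all lower. The part of these cells in the difference was not tested. Within the number formats, the knockout folds were 0.22 in the longer and 1.14 in the 2-digit numbers for Gad1, 0.28 and 1.36 for Gad2, and 0.14 and 1.26 for Slc32a1, in that order of formats. For Pvalb they were 0.79 in the longer and -0.18 in the 2-digit numbers, and for Vip 0.37 in the longer and -0.27 in the 2-digit numbers. None of the 8 was called within either format, and the difference between formats in the knockout effect was not tested.

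Across the 11 callosum libraries the 8 genes formed a tight group and a looser one. The following Pearson correlations of log2 CPM are descriptions and carry no test. The libraries differed in genotype, number format and total estimated count (15401130 to 25375187), and the part of these in the correlations was not tested. Gad1 went with Slc32a1 (r = 0.964) and Gad2 (r = 0.949), and Vip with Lhx6 (r = 0.892), Npy with Lhx6 (r = 0.845) and Vip with Npy (r = 0.84). Between the groups, Gad2 had r = 0.239 with Vip and 0.259 with Npy, the lowest values. Gad1 had r = 0.495 with each of Vip and Npy and 0.59 with Lhx6, and Slc32a1 had 0.451, 0.443 and 0.554 with the same genes. Sst stood between the groups, with r = 0.827 to Slc32a1 and 0.814 to Lhx6. Pvalb had r of 0.718 to 0.802 with Sst, Vip, Npy and Lhx6, against 0.381 with Gad2, 0.563 with Gad1 and 0.578 with Slc32a1.

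All 8 genes followed the general neuron markers, with r from 0.704 for Gad2 to 0.935 for Sst. The GABA genes also followed the mean of the septal markers, with r = 0.942 for Gad1, 0.891 for Gad2 and 0.889 for Slc32a1, and Sst had 0.765 with the same list. These septal markers do not mark the septum alone. They summed to 287 to 350 CPM in KO_ON and 219.5 to 336 CPM in WT_ON libraries, against 93.2 to 404 CPM in KO_CCg and 105 to 257 CPM in WT_CCg. The class markers followed the cortical excitatory markers, with r = 0.90 for Sst, 0.889 for Pvalb, 0.893 for Vip, 0.888 for Npy and 0.852 for Lhx6. With the same list r was 0.366 for Gad2, 0.61 for Gad1 and 0.593 for Slc32a1. With the striatal markers r was 0.703 for Gad2 and 0.095 for Vip. Gad1 and the myelin markers ran opposite, at r = -0.928.

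**Figure D5:**
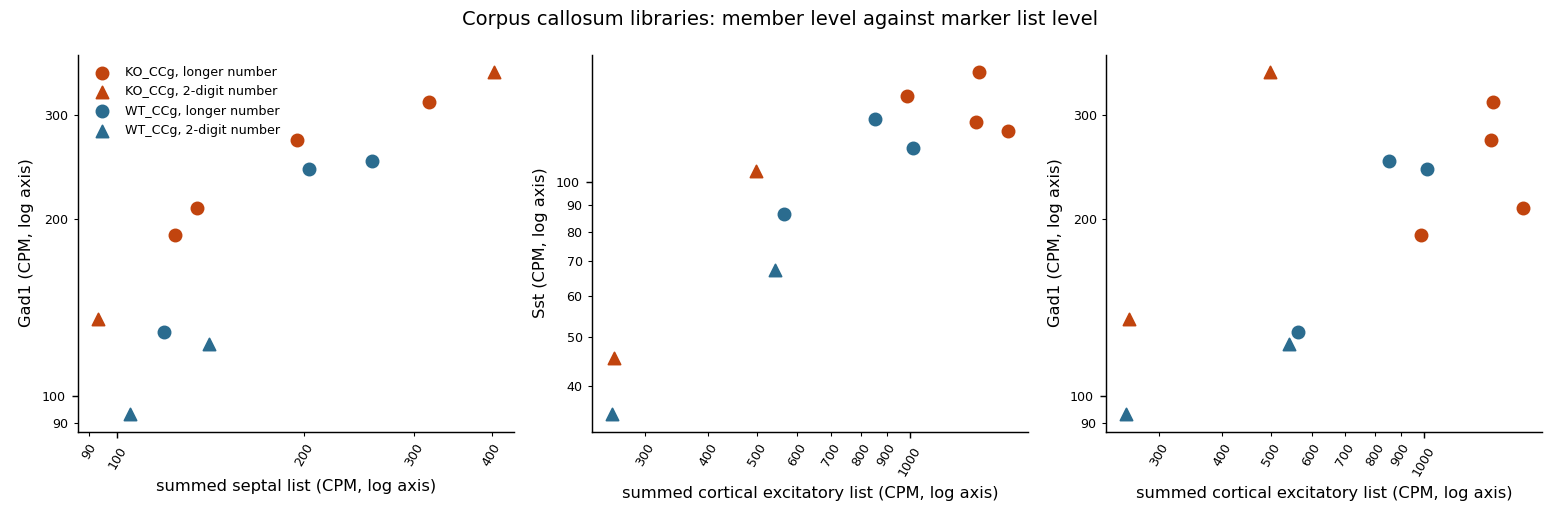
The 11 callosum libraries by the level of a gene against the summed level of a marker list (all axes CPM on a log scale), KO_CCg in orange and WT_CCg in blue, circles for longer and triangles for 2-digit numbers; left, Gad1 against the septal list, middle, Sst against the cortical excitatory list, right, Gad1 against the cortical excitatory list. KO_CCg_27, the highest triangle, has 356 CPM of Gad1 with a septal sum of 404 CPM, and in the right panel it joins the highest Gad1 to a cortical sum below that of every library with a longer number.

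Of 13080 named genes outside the list whose log2 CPM averaged 1 or more, those most like Gad1 over the 11 libraries included Tmem35a (r = 0.984), Scn3b, Ajap1 and Zfp941. For Sst they were Plvap (r = 0.991), Apba2, Otub1, Pitpnm1 and St3gal2. For Pvalb they were Ttc9b (r = 0.958), Adgra1, Cyb561, Dkk3 and Il17d, and for Npy they were Galnt14 (r = 0.968), Trp53i11, Htatip2, Fhl2 and Crtac1.

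Of 28 other genes of interneuron classes, 25 were above 0 between genotypes in callosum, with a median of 0.36. Of these 28, 1 was called, higher, against 0.0387% of all genes. This was Kit, a receptor kinase of some interneurons and of other cells, at 49.2 ± 8.4 CPM in KO_CCg and 24.6 ± 2.7 CPM in WT_CCg libraries (SD, n = 6 and 5; log2 fold change 0.95, SE 0.12, edgeR adjusted p = 0.0272). The next smallest p belonged to the opioid peptide Penk (0.77, SE 0.29, adjusted p = 0.390) and the tachykinin Tac1 (0.64, SE 0.24, adjusted p = 0.390), both also made by striatal projection neurons. In the optic nerve 0 of the 20 tested were called. Between tracts, 21 of 28 were higher and 2 lower in KO_CCg over KO_ON, against 15.2% and 14.9% of all genes. In WT_CCg over WT_ON 20 were higher and 2 lower, against 13.2% and 13% of all genes. Among the higher were the cannabinoid receptor Cnr1 (5.11 in WT, SE 0.51) and Tac1 (3.38 in WT, SE 0.29). In the longer against the 2-digit numbers 14 of 28 were higher and 0 lower, against 12.8% and 13.8% of all genes. The higher included the peptides Cck (1.99, SE 0.38) and Cort (1.69, SE 0.30).

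Of 19 transcription factors of the interneuron lineage, 18 passed the count filter in callosum and 0 were called between genotypes (12 above 0, median 0.18). Between tracts in wild type 9 of the 18 were higher and 4 lower in callosum, against 13.2% higher and 13% lower of all genes. The distal-less genes Dlx1 and Dlx2, which precursors of interneurons make and which the neuroblasts of the subventricular zone also carry, were higher by 5.96 (SE 0.47) and 5.19 (SE 0.41). Nr2f2 and Maf, which vessel, meningeal or immune cells also make, were lower by -3.76 (SE 0.18) and -2.85 (SE 0.16).

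Receptors for GABA and for the peptides were counted in the same way. Of 14 subunits of the GABA-A receptor tested in callosum 0 were called between genotypes and 14 were above 0, with a median of 0.61. The smallest p among them were those of Gabrg3 (0.87, SE 0.27, edgeR adjusted p = 0.332) and Gabra4 (0.71, SE 0.23, adjusted p = 0.338). Between tracts in wild type 12 of 16 were higher and 1 lower in callosum, with the extrasynaptic subunit Gabrd at 4.32 (SE 0.42). Of all genes 13.2% were higher and 13% lower there, and the same shares apply to the tract counts that follow. Of 12 genes of the GABA-B receptor, chloride transport and the inhibitory synapse, 0 were called between genotypes in callosum (10 above 0), and 7 were higher and 0 lower between tracts in wild type. Receptors for somatostatin, VIP and neuropeptide Y gave 0 of 11 called between genotypes (10 above 0, median 0.51), and 7 of 11 higher and 1 lower between tracts in wild type, with Vipr1 at 2.67 (SE 0.41) and Sstr2 at 3.80 (SE 0.67).

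Of 14 genes of GABA transport and breakdown, 1 was higher and 4 were lower in WT_CCg over WT_ON, where 26.2% of all genes were called (13.2% higher and 13% lower). The lower ones included the GABA and betaine transporters Slc6a12 (-7.69, SE 0.44) and Slc6a13 (-5.96, SE 0.37), which meningeal cells make, and the aldehyde dehydrogenase Aldh1a1 (-3.52, SE 0.19). Slc6a13 averaged 2.95 ± 1.19 CPM in WT_CCg and 181 ± 45 CPM in WT_ON libraries (SD, n = 5 and 4). Markers of fibroblasts and meninges summed to 79.7 to 126 CPM in WT_CCg and 2418 to 4188 CPM in WT_ON libraries, and their part in these differences was not tested. In callosum 0 of the 13 tested were called between genotypes.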

How the data were processed

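Polyadenylated RNA of 20 mouse libraries was sequenced with a stranded mRNA kit, per the labels' protocols. The authors deposited 1 table of estimated counts per gene, not scaled to a common total, made with kallisto per the name of the deposited table. The build named in the submitters' processing notes is mm10; kallisto's version, the annotation and the summing to genes were not given in the sources used here. Symbols and positions came from GENCODE on GRCm38, with 46005 of 46517 identifiers matched. No 2 libraries were identical (0 pairs), and 0 columns were left unmapped.

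Estimated counts were rounded, filtered (filterByExpr, minimum count 10, minimum total 15), scaled with TMM factors and tested with edgeR 4.0.16 (quasi-likelihood, Benjamini-Hochberg over all genes). Each tissue was fitted apart, and all 20 libraries together for the interaction and the comparison of tracts. SE is the fold change over the root of F. CPM by library is not TMM-scaled, so fold changes differ slightly from ratios of mean CPM. Alternatives were DESeq2 1.42.0, limma-voom (limma 3.58.1) with quality weights, other scalings and filters, covariates, subsets, and leaving out each library. Scripts were tested on simulated counts. Genes named besides the 8 were up to 4 per list with the smallest p and the 5 most correlated with Gad1, Sst, Pvalb and Npy. Some genes that this rule or these lists hold are not reported here. Levels of single other markers in optic nerve were chosen after their values were seen. The genes and lists were chosen with earlier results of these data known.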

Additional observations from a re-analysis of the deposited data

Results flagged for a closer look

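In 32 checks, of 8 genes in 4 groups, 6 had 1 library far from the rest of its group by Dixon's criterion, which chance alone flags in about 1 in 20 groups. WT_ON_717652 was the highest of 4 wild-type nerves in 6 of the 8 genes, and stood far from the rest in 4 of them, with 20.9 CPM of Gad2 (next 3.30), 10.2 CPM of Slc32a1 (next 1.35), 2.17 CPM of Sst (next 0.269) and 12.3 CPM of Vip (next 0.762). The same library had 105.6 CPM of the hypothalamic peptide Avp. KO_ON_717651 was the highest of 5 knockout nerves in Vip, at 12.3 CPM (next 1.35), with 52.3 CPM of Avp. Avp did not follow Vip throughout, as KO_ON_48038A7, with 1.35 CPM of Vip, had more Avp than KO_ON_717651. The highest sum of hypothalamic markers, 244 CPM, was in KO_ON_48118A4, with 0.0833 CPM of Vip. WT_ON_719857 was the highest of 4 wild-type nerves in Pvalb, at 11.6 CPM (next 7.26).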

How the results depend on the processing

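The number of all genes called between genotypes in callosum, 6 by edgeR, was 174 with DESeq2, 2786 with limma-voom and quality weights, 10 with number format as a covariate, 0 in the 2-digit and 2 in the longer numbers, 2 with the striatal covariate, 41 in a joint fit of 20 libraries, and 2 to 41 with 1 library left out (41 without WT_CCg_685232). Of the 8 genes, limma-voom called 2 there. In optic nerve DESeq2 called 35 genes. The comparison of longer with 2-digit numbers ranged from 1912 (without KO_CCg_29; 2005 without WT_CCg_28) to 4471 genes with 1 library left out, and from 4 to 6 of the 8 genes.

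Signs turned as follows on the log2 scale. In callosum, Sst was -0.16 and Vip -0.20 with the general neuron covariate, and Pvalb -0.18 and Vip -0.27 in the 2-digit numbers. In optic nerve, limma-voom gave Pvalb 0.061 and Vip 1.80, Npy was -0.14 with the neuron covariate and Vip 1.08 without both libraries highest in Vip. With 1 nerve left out, folds in optic nerve ranged for Gad2 from -0.00898 to 2.33, Vip from -2.50 to 3.44, Lhx6 from -0.26 to 0.31, Npy from -0.33 to 0.84 and Pvalb from -0.25 to 0.12. The interaction had Gad2 at -0.995, Sst -0.14 and Vip -1.06 by limma-voom, and without both libraries highest in Vip Gad2 was -1.204, Sst -1.735, Vip -0.81 and Npy -0.60. With 1 library left out it ranged for Gad2 from -1.71 to 0.64, Sst from -1.78 to 1.43, Vip from -3.17 to 2.76 and Npy from -0.50 to 0.69, and called 0 to 1 genes. Gad2 ranged from -0.087 to 0.58 between number formats. The causes were not tested.

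Fits with the replicate block were made where numbers recur in both tissues. For the interaction, over 4 numbers, the fit gave Gad1 1.04 and Slc32a1 0.84, against -0.38 and -0.95 in the main fit. Its wild-type side rests on 1 number, and the nerve of that number is the WT_ON library highest in Vip. These values therefore cannot decide the sign of the interaction. For the KO tracts, over 3 numbers, the fit called as many as the main fit, 6 of the 8, and moved the count of all genes by less than 1.5 times. Only 1 wild-type number recurs, too few for such a fit of the WT tracts. Same-numbered libraries deviated with r of 0.0178, -0.153, 0.134 and -0.0532, and 1 of 4 correlated best with its own number. Correlations over 4 numbers are too few to decide whether a recurring number is the same animal, which the labels do not say. The main fits did not take the numbers as pairs. Knockout and wild type share no numbers within a tissue. In the tract comparison the 6 genes higher in callosum kept direction and call under every alternative run. Depth limits Sst, Vip, Npy and Slc32a1, each with fewer than 10 counts in some nerves.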
